A study of Mus musculus with 6 samples.

Results

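The genes of the constitutive proteasome were examined in bone marrow osteoclast precursors of mice with inflammatory bone destruction, with and without a JAK inhibitor. Members were the gene symbols that begin with Psma, Psmb, Psmc or Psmd and a digit, without the cytokine-induced *Psmb8*, *Psmb9* and *Psmb10* and without names ending in -ps, which mark pseudogenes. This gave 37 of 24346 symbols, of which 36 had an FPKM (fragments relative to a transcript's length and a library's total) of at least 1 in some mouse, and these 36 were at or above 1 in all 6 mice. Of the 37, 14 encode the core particle and 17 the regulatory particle found in most cells. The other 6 were kept apart: *Psma8* and *Psmb11* are tissue-specific core subunits of testis and thymus, *Psmd5*, *Psmd9* and *Psmd10* encode assembly chaperones that leave the finished particle, and *Psmc3ip*, a meiotic recombination factor, only shares the letters of the name.

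The mice carried EGFP in the *Cx3cr1* locus (CX3CR1-EGFP) and had received lipopolysaccharide (LPS) at 20 mg/kg in the calvarial periosteum. Starting on that day they were given the JAK inhibitor ABT-317 by mouth, 60 mg/kg at each dose, or vehicle. There were 2 doses per day for 5 days, and CX3CR1-EGFP+ cells were then sorted from calvarial bone marrow for RNA-Seq. There were 3 JAK inhibitor-treated and 3 vehicle-treated mice, numbered 1 to 3 in each group, and all 6 had the knock-in and the LPS. Age is not stated for the sequenced mice, no mice without LPS are in the comparison, and p-values measure only the spread between these 6 samples.

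The proteasome is the protease that degrades ubiquitin-tagged proteins. Its barrel-shaped core has outer alpha rings, which gate the entry, and inner beta rings, in which *Psmb5*, *Psmb6* and *Psmb7* encode the proteolytic subunits. The regulatory particle binds and deubiquitinates the substrate and unfolds it with a ring of ATPases, the Psmc proteins. Under interferon, which signals through JAK kinases, the proteolytic subunits can be replaced by *Psmb8*, *Psmb9* and *Psmb10*, and proteasome activity is known to be needed for RANKL signaling to NF-kB in osteoclast precursors.

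Because many members had lower values together, their promoters are shown first for 4 core genes on which the comparisons below rest: *Psmb3*, which had the smallest p, *Psma6*, the alpha gene with the largest difference, and the proteolytic *Psmb5* and *Psmb6*. The reference sequences (RefSeq, GRCm38.p6) are given 5′ to 3′ on the strand of the gene and end before the first annotated exon base. Capitals mark CCAAT, the box that NF-Y binds, on either strand, and TGACNNNGC, the core of the antioxidant response element, on either strand; the motifs do not overlap here. The windows are chr11:97703234-97703398 (+) for *Psmb3*, chr12:55384022-55384221 (+) for *Psma6*, chr14:54618023-54618195 (-) for *Psmb5* and chr11:70525157-70525356 (+) for *Psmb6*.
Psmb3: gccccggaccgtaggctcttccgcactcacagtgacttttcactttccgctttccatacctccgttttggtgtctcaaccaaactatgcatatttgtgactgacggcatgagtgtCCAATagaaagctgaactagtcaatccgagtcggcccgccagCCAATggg
Psma6: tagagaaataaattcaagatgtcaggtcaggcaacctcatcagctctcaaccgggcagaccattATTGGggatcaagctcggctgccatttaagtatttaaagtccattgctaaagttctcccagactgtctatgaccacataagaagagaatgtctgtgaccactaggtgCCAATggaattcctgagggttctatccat
Psmb5: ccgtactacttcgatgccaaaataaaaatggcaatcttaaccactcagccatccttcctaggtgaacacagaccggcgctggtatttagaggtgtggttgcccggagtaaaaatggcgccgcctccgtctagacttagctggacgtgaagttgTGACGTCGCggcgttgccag
Psmb6: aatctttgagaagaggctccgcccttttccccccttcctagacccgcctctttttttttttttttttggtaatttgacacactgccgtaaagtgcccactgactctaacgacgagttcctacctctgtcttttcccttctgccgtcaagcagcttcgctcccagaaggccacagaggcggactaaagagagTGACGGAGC

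*Psmb3* and *Psma6* each had the CCAAT letters at 2 places, and *Psmb5* and *Psmb6* each had TGACNNNGC at 1 place. Promoters from 250 bases before to 50 bases after the start were found for 25 of the 31 standard subunits, *Psmd3* not among them. A gene counted if any of its promoters held the motif. Of the 25, 10 (40.0%) held CCAAT, against 41.1% of 27025 gene symbols in the same table. TGACNNNGC was in 4 (16%), against 13.99% of all symbols. By particle, CCAAT was in 6 of 11 core genes (54.55%) and 4 of 14 regulatory genes (28.57%), and TGACNNNGC in 2 (18.18%) and 2 (14.29%). The median log2 fold change, JAK inhibitor against vehicle, was -0.28 for subunits with CCAAT and -0.25 for those without, and -0.24 with TGACNNNGC and -0.27 without.

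The members were abundant, and core genes were at higher levels than genes of the regulatory particle. In vehicle-treated mice the median FPKM was 418 over the 14 core genes and 162 over the 17 regulatory genes, and with JAK inhibitor it was 366 and 126. The order ran from *Psma7*, an alpha subunit, with a mean FPKM of 860 over the 6 mice, down to *Psmd1*, a large scaffold of the regulatory base, with 69.8. The lowest core gene was *Psmb7*, which encodes the trypsin-like subunit (118), and the highest regulatory gene was *Psmd8*, a lid subunit (251). Although the products assemble in equal numbers, the highest core gene was 6.80 times the lowest in vehicle-treated mice and 7.84 times in JAK inhibitor-treated mice. In the regulatory particle the corresponding ratios were 3.70 and 3.65. FPKM is per length, so these levels can be set side by side, but neighbors in the order such as *Psmb6*, *Psmb5* and *Psmb1* (means of 401, 397 and 396) did not differ beyond their spread.

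**Figure D1:**
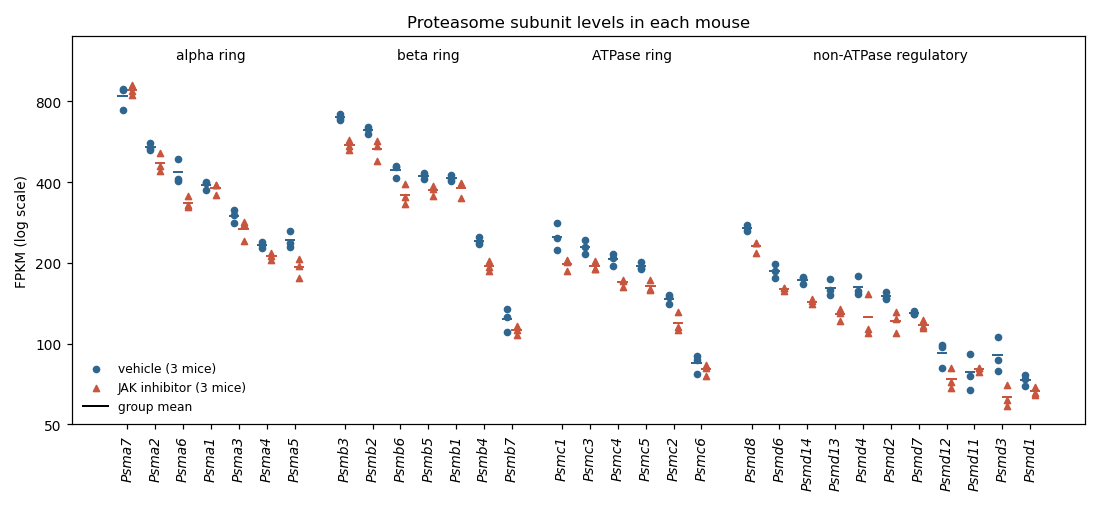
FPKM on a log axis of the 31 standard subunits (columns, by ring or group and falling mean level) in each of 3 vehicle-treated (circles) and 3 JAK inhibitor-treated (triangles) mice, with short lines at the group means. Triangles lie below circles in most columns, whereas *Psma7* and *Psmd11* have overlapping groups with the higher mean under JAK inhibitor.

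Most subunits of both particles were lower with JAK inhibitor, by small amounts. Of the 14 core genes 13 had a lower and 1 a higher mean log2 value, and the median log2 fold change was -0.19, or 87.6% of vehicle, on the log2(FPKM + 1) scale. Of the 17 regulatory genes 16 had a lower and 1 a higher mean, with a median of -0.27, or 82.9% of vehicle. Over all 11301 genes tested, 5715 were lower and 5586 higher, and the median was -0.0035. None of the 36 members passed an adjusted p of 0.05 in limma (adjusted p from 0.113 to 0.884), as against 0.0973% of all genes tested that did so in the lower direction. At an unadjusted p under 0.05 there were 21 members in the lower direction, 8 of 14 core and 13 of 17 regulatory genes, beside 9.4% of all genes tested, and there were 0 in the higher direction, beside 6.57%.

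The groups did not overlap, with every JAK inhibitor-treated mouse below every vehicle-treated mouse, for 10 of 14 core and 13 of 17 regulatory genes, where 12.1% of all genes tested did so. Among the 2217 genes with a mean FPKM of at least 50, a level that all 31 standard subunits reach, these shares were 15.3% for the unadjusted p and 20.4% for lack of overlap, and the median log2 fold change was -0.03. The summed FPKM of the members was 7630 ± 265 (SD, n = 3) with JAK inhibitor and 8805 ± 155 (SD, n = 3) with vehicle. As a share of all FPKM of a library it was 1.01%, 1.07% and 1.06% with JAK inhibitor (mice 1 to 3) and 1.15%, 1.17% and 1.18% in the vehicle-treated mice, without overlap. The count of 21 was 13 without vehicle-treated mouse 1, beside 8.39% of all genes tested in the lower direction. It was 16 when the libraries were scaled to equal FPKM sums, a setting chosen after seeing the data, beside 6.67%. Under that scaling the groups of 10 core and 12 regulatory genes did not overlap, beside 8.63% of all genes tested. In sorted bulk RNA, fewer cells with a given level and less RNA per cell cannot be told apart.

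**Figure D2:**
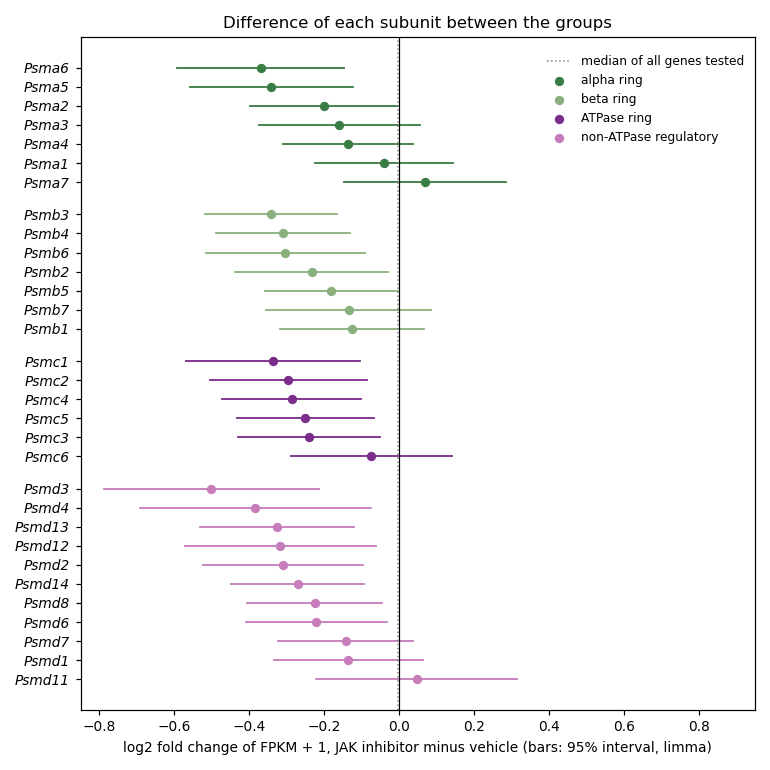
Log2 fold change of FPKM + 1 (horizontal axis, JAK inhibitor minus vehicle, limma, with 95% intervals) for the 31 standard subunits, colored by ring or group; the dotted line is the median of all genes tested. Points lie to the left of 0 for 29 of 31 genes, from -0.50 for *Psmd3* to 0.07 for *Psma7*.

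In the alpha ring, 6 of 7 genes had lower means and the groups of 4 did not overlap (median log2 fold change -0.16). *Psma6* had FPKM of 328, 323 and 355 with JAK inhibitor and 411, 404 and 490 with vehicle. The lowest vehicle-treated mouse was thus above the highest JAK inhibitor-treated mouse, and the log2 fold change was -0.37 (SE 0.10, adjusted p = 0.142 in limma). *Psma5*, the next in size, had FPKM of 196, 176 and 207 with JAK inhibitor and 264, 230 and 238 with vehicle, again without overlap (log2 fold change -0.34, SE 0.10, adjusted p = 0.154 in limma).

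*Psma7* was the exception in the core and its highest gene. Its FPKM was 920, 843 and 875 with JAK inhibitor and 886, 889 and 746 with vehicle. The groups overlapped, and vehicle-treated mouse 3 alone was low. The log2 fold change was 0.07 (95% interval -0.15 to 0.29), and without that mouse it was -0.01. *Psma1* also overlapped, at 97.3% of vehicle.

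All 7 genes of the beta ring had lower means with JAK inhibitor, and the groups of 6 did not overlap (median log2 fold change -0.23). *Psmb3*, a structural subunit, had FPKM of 528, 548 and 574 with JAK inhibitor and 681, 693 and 717 with vehicle. The gap between the groups was wider than the range within either, and the log2 fold change of -0.34 (SE 0.08) had the smallest adjusted p among the members, 0.113 in limma, with an exact permutation p of 0.1, the smallest that 3 against 3 mice can give. *Psmb4*, another structural subunit, had FPKM of 187, 193 and 203 with JAK inhibitor and 235, 239 and 249 with vehicle, also apart (log2 fold change -0.31, SE 0.08, adjusted p = 0.131 in limma).

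All 3 proteolytic subunits had lower means, with intervals of the difference that overlapped one another. *Psmb6*, which cleaves after acidic residues, had FPKM of 351, 331 and 394 with JAK inhibitor and 458, 415 and 455 with vehicle. *Psmb5*, which cleaves after hydrophobic residues and is the target of bortezomib, had 386, 355 and 377 against 431, 410 and 425. Neither pair of groups overlapped, with log2 fold changes of -0.30 (SE 0.09, adjusted p = 0.175 in limma) and -0.18 (SE 0.08, adjusted p = 0.302 in limma). *Psmb7* had FPKM of 116, 108 and 112 against 134, 111 and 126, which overlapped through vehicle-treated mouse 2 (log2 fold change -0.13, 95% interval -0.35 to 0.08). Its value was -0.07 without vehicle-treated mouse 1 and -0.21 without vehicle-treated mouse 2.

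In the ATPase ring, 6 of 6 genes had lower means, and only the groups of *Psmc6* overlapped (median log2 fold change -0.27). *Psmc4*, which had the smallest p of the ring, had FPKM of 173, 163 and 171 with JAK inhibitor and 210, 195 and 215 with vehicle (log2 fold change -0.29, SE 0.08, adjusted p = 0.157 in limma). The groups of *Psmc1* and *Psmc2*, which encode other ATPases of the ring, were also apart, at 78.9% and 81.5% of vehicle. *Psmc6* stood at 94.8%.

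Of the 11 non-ATPase genes of the regulatory particle 10 had lower means and the groups of 8 did not overlap (median log2 fold change -0.27). *Psmd3*, a lid subunit, had the largest difference of all members. Its FPKM was 58.4, 69.9 and 61.9 with JAK inhibitor and 86.6, 79.0 and 106 with vehicle. Every vehicle-treated mouse was higher, mouse 3 most, and the log2 fold change was -0.50 (SE 0.13, adjusted p = 0.127 in limma), or 70.0% of the vehicle mean.

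*Psmd13*, another lid subunit, had FPKM of 121, 130 and 135 with JAK inhibitor and 175, 152 and 159 with vehicle (log2 fold change -0.33, SE 0.09, adjusted p = 0.153 in limma). *Psmd14*, the deubiquitinase that removes the ubiquitin chain from a committed substrate, had 140, 144 and 147 against 176, 167 and 177 (log2 fold change -0.27, SE 0.08, adjusted p = 0.160 in limma). *Psmd2*, a scaffold of the base, had 109, 124 and 131 against 147, 148 and 156 (log2 fold change -0.31, SE 0.09, adjusted p = 0.172 in limma). In these 3 genes no mouse of one group reached the other. The groups of *Psmd8* (85.6% of vehicle) and *Psmd1* (90.8%) were apart as well.

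*Psmd11*, a lid subunit, was the only regulatory gene with a higher mean under JAK inhibitor. It had FPKM of 78.2, 81.2 and 81.4 with JAK inhibitor and 67.2, 91.7 and 76.0 with vehicle. The vehicle-treated mice lay on both sides of the JAK inhibitor-treated ones (log2 fold change 0.05, 95% interval -0.22 to 0.31), and without vehicle-treated mouse 1 the value was -0.06. The groups of *Psmd4*, the ubiquitin receptor, which overlapped, are named here after their values were seen: FPKM of 114, 154 and 110 with JAK inhibitor and 153, 157 and 179 with vehicle, so JAK inhibitor-treated mouse 2 lay within the vehicle range.

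Medians of the 3 JAK inhibitor-treated mice lay closer together in the regulatory particle than in the core. As the median log2 difference from the vehicle mean, the regulatory genes were at -0.25, -0.28 and -0.24 with JAK inhibitor (mice 1 to 3). The core genes were at -0.13, -0.30 and -0.15 in the same mice. Vehicle-treated mice were between -0.05 and 0.03 in both. JAK inhibitor-treated mouse 2 thus had the lowest core, and it was the lowest of all 6 mice in 11 of 14 core genes and 8 of 17 regulatory genes. It also had the lowest FPKM sum of the 6 libraries, and its part in the low core values was not tested beyond leaving it out, which moved the core median to -0.15 and the regulatory median to -0.26.

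Whether the 2 particles differed from each other was read from medians and sums, with no test. The core median was higher than the regulatory median by 0.08 on the log2 scale. The ratio of summed core to summed regulatory FPKM was 2.40, 2.22 and 2.41 with JAK inhibitor and 2.23, 2.26 and 2.17 with vehicle. These overlapped, since JAK inhibitor-treated mouse 2 lay within the vehicle range.

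**Figure D3:**
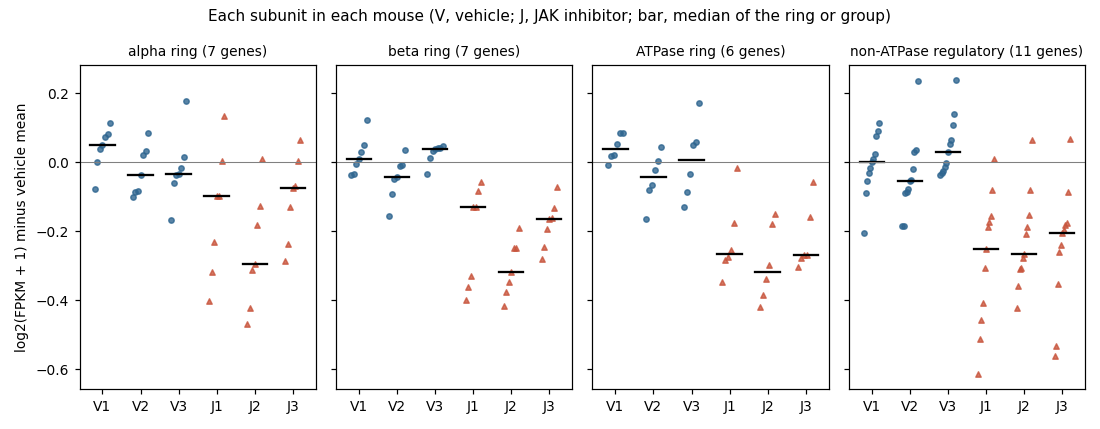
Log2(FPKM + 1) of each standard subunit minus its vehicle mean (vertical axis), for each vehicle-treated (V1 to V3) and JAK inhibitor-treated (J1 to J3) mouse, in 4 panels by ring or group, with bars at the medians. Medians of the JAK inhibitor-treated mice are between -0.32 and -0.08 and those of the vehicle-treated mice between -0.05 and 0.05, and J2 is lowest in each panel.

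The 6 genes outside the standard particles were low or did not separate the groups. The chaperones *Psmd5*, *Psmd9* and *Psmd10* had lower means with JAK inhibitor, at 86.8%, 79.2% and 94.3% of vehicle, and overlapped in each case (adjusted p from 0.333 to 0.733 in limma). With 1 mouse left out their log2 fold changes moved by over 1.5 times, from -0.21 to -0.12 for *Psmd5* without JAK inhibitor-treated mouse 1, from -0.32 to -0.21 for *Psmd9* without JAK inhibitor-treated mouse 3 and from -0.08 to -0.03 for *Psmd10* without vehicle-treated mouse 3. *Psma8* was near the limit of the filter, between 1.04 and 2.84 in all mice, and *Psmb11* was below it, at most 0.06. *Psmc3ip* had a mean FPKM of 24.8 ± 5.16 (SD, n = 3) with JAK inhibitor and 27.9 ± 2.09 (SD, n = 3) with vehicle.

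The cytokine-induced counterparts of the proteolytic subunits had overlapping groups. *Psmb8*, which replaces *Psmb5*, had FPKM of 479, 469 and 502 with JAK inhibitor and 521, 494 and 424 with vehicle. *Psmb9*, which replaces *Psmb6*, had 195, 171 and 193 against 185, 181 and 121. *Psmb10*, which replaces *Psmb7*, had 147, 115 and 138 against 142, 148 and 155. All 3 overlapped between the groups, with log2 fold changes of 0.02, 0.22 and -0.16 and adjusted p from 0.511 to 0.955 in limma; vehicle-treated mouse 3 was low in *Psmb8* and *Psmb9*, and without it the values were -0.07 and 0.03. JAK inhibitor-treated mouse 2 was low in *Psmb10*, whose value without it was -0.06.

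Within a mouse, the ratio of *Psmb5* to *Psmb8* was 0.805, 0.756 and 0.751 with JAK inhibitor and 0.829, 0.830 and 1.0025 with vehicle. The ratio of *Psmb6* to *Psmb9* was 1.80, 1.93 and 2.05 against 2.48, 2.30 and 3.77. Both were lower in every JAK inhibitor-treated mouse than in any vehicle-treated mouse, by a mean of -0.20 and -0.53 on the log2 scale, with the lowest exact permutation p possible, 0.1, or 0.15 adjusted over the 3 pairs. Without vehicle-treated mouse 3 these differences were -0.11 and -0.31. The ratio of *Psmb7* to *Psmb10* overlapped, at 0.791, 0.938 and 0.812 against 0.946, 0.744 and 0.814 (exact permutation test, p = 1).

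**Figure D4:**
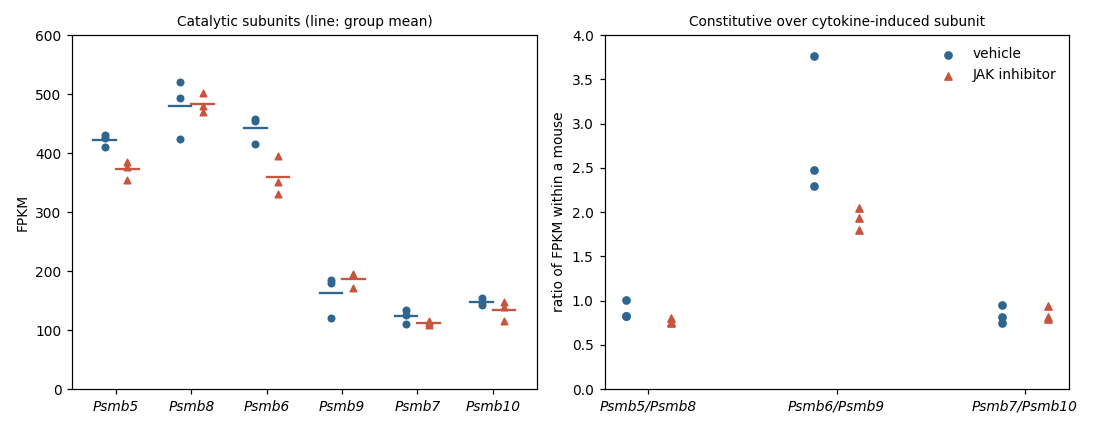
Left, FPKM of the 3 proteolytic subunits and their cytokine-induced counterparts in each mouse, with lines at the group means; right, the ratio of the 2 FPKM of a pair within each mouse (circles, vehicle; triangles, JAK inhibitor). The ratios of *Psmb5* to *Psmb8* and of *Psmb6* to *Psmb9* do not overlap between the groups, and vehicle-treated mouse 3 has the highest value of both, 1.0025 and 3.77.

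Around the proteasome, 44 further genes were examined: the cytokine-induced subunits, activator caps, core assembly factors, other proteins of the regulatory particle, ubiquitin pathway and shuttle factors, and regulators of proteasome genes. Of the 43 tested, 23 were lower and 20 higher, and the median log2 difference was -0.0089; none passed an adjusted p of 0.05 in limma, while 9 had an unadjusted p under 0.05, all lower, beside 9.4% of all genes tested in the lower direction and 6.57% in the higher. The activator genes *Psme1* and *Psme2* had log2 fold changes of -0.04 and 0.09. In assembly, *Psmg1*, a chaperone of the alpha ring, had FPKM of 53.4, 51.5 and 56.6 with JAK inhibitor and 74.8, 66.5 and 70.0 with vehicle, without overlap (log2 fold change -0.38, SE 0.09, adjusted p = 0.120 in limma). *Pomp*, the chaperone of the beta ring, overlapped (0.06).

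Genes that act on the substrate before the core were also among those 9. The deubiquitinase gene *Uchl5* had a log2 fold change of -0.30. The segregase gene *Vcp* and its cofactors *Ufd1l* and *Nploc4*, which extract ubiquitinated proteins, had values of -0.25, -0.34 and -0.27 (adjusted p from 0.225 to 0.276 in limma over the 4 genes). Without vehicle-treated mouse 3, the highest in *Ufd1l*, that gene's value was -0.21. For *Vcp* the FPKM was 157, 186 and 180 with JAK inhibitor and 204, 208 and 209 with vehicle, so the groups were apart.

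Of 9 regulators of proteasome genes 5 had lower and 4 higher means, with a median log2 difference of -0.03. An unadjusted p under 0.05 in limma was reached by 3, all lower, beside 9.4% of all genes tested in that direction. The highest value was 0.28 for *Ngly1*, the glycanase that acts on the *Nfe2l1* product, named after its values were seen. *Nfe2l1*, which encodes the factor that raises proteasome genes when proteasome activity is low, had FPKM of 11.9, 15.8 and 11.4 with JAK inhibitor and 13.1, 13.5 and 12.9 with vehicle, and overlapped (log2 fold change -0.03). *Ddi2*, the protease that activates that factor, had 15.005, 16.3 and 16.4 against 22.2, 18.2 and 25.7, and the groups were apart (-0.43, SE 0.14, adjusted p = 0.191 in limma). *Nfe2l2*, the oxidative stress factor, had 100, 98.3 and 112 against 130, 117 and 121, without overlap (-0.24, SE 0.09, adjusted p = 0.238 in limma). *Stat3*, a substrate of JAK kinases, had 48.2, 54.2 and 59.6 against 69.7, 65.7 and 70.9, also apart (-0.35, SE 0.10, adjusted p = 0.168 in limma).

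Marker genes of the sorted cells and of other marrow cells were summed in the same libraries. Summed FPKM of 8 monocyte and osteoclast precursor markers was 28720 to 38126 with JAK inhibitor and 28225 to 37473 with vehicle. *Lyz2* made up most of each sum, which therefore says little of the other markers. *Cd14* was lower in every JAK inhibitor-treated mouse (66.2, 41.5 and 58.3 against 104, 67.8 and 132), and the others overlapped. Vehicle-treated mouse 3 had the lowest *Cx3cr1* (15.5) and *Ly6c2* (2751) and the highest *Tnfrsf11a* (8.09) of all mice. Of 10 neutrophil markers, 9 were in the files, without *Ly6g*. Their sums overlapped, at 17163 to 24336 with JAK inhibitor and 16957 to 22883 with vehicle. Most of each sum came from *S100a8*, *S100a9*, *Elane* and *Mpo*. *Ltf* and *Retnlg* were far lower, at 15.1 to 80.3 and 2.51 to 74.1 over the mice. Within that list *Elane* (4023, 3903 and 3713 against 2316, 2452 and 1003), *Mpo* and *Camp* had higher values in every JAK inhibitor-treated mouse than in any vehicle-treated mouse. *Cxcr2* had lower values in every JAK inhibitor-treated mouse (4.58, 4.55 and 2.96 against 6.38, 5.98 and 11.5), and the other 5 overlapped. Of 7 macrophage markers, all detected, the sum was 138 to 231 with JAK inhibitor and 253 to 430 with vehicle. Only *C1qb* (61.8, 31.1 and 32.4 against 163, 176 and 93.3) and *Mertk* (1.34, 0.456 and 0.444 against 2.735, 2.09 and 10.2) had groups apart. The other macrophage markers overlapped, and *Vcam1* had its highest value, 23.3, with JAK inhibitor. For 6 mature osteoclast markers, *Calcr* being at 0, the sum was 107 to 112 with JAK inhibitor and 166 to 576 with vehicle. Sums of 9 proliferation genes overlapped, at 1289 to 1332 and 1183 to 1456. Erythroid sums were 14 to 67.0 with JAK inhibitor and 9.98 to 12.5 with vehicle. In the stromal and osteoblast list *Pecam1* was at 24.9 to 34.4 and 11.4 to 27.1, and the other 5 genes were below 1 in every mouse. Sums of dendritic cell markers were 30.9 to 44.5 and 34.1 to 48.2. Those of T and NK cell markers were 2 to 6.38 and 1.96 to 4.54. For B cell markers they were 28.9 to 35.7 and 27.5 to 31.9, with *Ms4a1*, *Pax5* and *Ebf1* at 0. The part of the macrophage, osteoclast and neutrophil genes in the subunit differences was not tested.

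The members lie on 16 chromosomes. On GRCm38 (GENCODE M21, protein-coding) *Psmb3* is at chr11:97703399-97713500, *Psma6* at chr12:55384222-55418454, *Psmd3* at chr11:98682554-98695979, *Psmb5* at chr14:54614119-54618022, *Psmb6* at chr11:70525367-70527858 and *Psma7* at chr2:180036374-180042433. Exon bases are shared with another gene for 10 of the 37 members. On the opposite strand these include *Psmd3* with 17 bases, *Psmb7* with 405 bases of *Nek6*, *Psmd13* with 342 bases of *Sirt3* and *Psmd9* with 1849 bases. On the same strand, *Psmd1* shares 301 bases with *Gm21972* and *Psmb5* shares 109 bases with *Mir686*. The sources used here do not state whether fragments were counted by strand, and counting by strand would not separate the same-strand cases. The annotation also has 4 pseudogenes with a member's name and -ps, named for *Psmb5*, *Psmb6* and *Psmb7*, with which these genes could share fragments. Pseudogenes under other names were not counted, so other members could share fragments too.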

How the data were processed

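CX3CR1-EGFP+ cells of 3 JAK inhibitor-treated and 3 vehicle-treated mice were sequenced. A table of FPKM for each mouse was deposited by the authors; the submitters' processing notes name TopHat2 2.0.13, Bowtie2 2.2.3, SAMtools 0.1.19 and Cufflinks 2.2.1 and the build mm10, and the annotation is not given in the sources used here. The labels name SMART-Seq HT and Nextera kits, the methods a stranded mRNA kit. FPKM sums were 688372 to 775790, and 10361 to 10439 genes reached an FPKM of 1. No read counts were used; ratios of low values placed relative depths within 1.17-fold, a rough estimate, and no counting intervals can be given.

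For the 11301 genes that reached an FPKM of 1 in any sample, log2(FPKM + 1) was compared with limma 3.58.1 (R 4.3.3, empirical Bayes with a trend, no covariates), with Benjamini-Hochberg adjustment over all of them and a threshold of 0.05. On this scale changes of low genes are understated, but the lowest standard subunit had a mean FPKM of 69.8. The model was tested on simulated data. Single genes had an exact 2-sided permutation test of 3 against 3 mice. The design came from the sample labels. Members and gene lists were chosen with earlier results of these data known, so lists have counts and medians and no p. The genes named are the 12 members with the smallest unadjusted p, the proteolytic subunits, the highest, lowest and most different gene of each particle, members that are no standard subunit, 8 pathway genes by p and 7 chosen by role; *Psma1*, *Psmb1*, *Psmc6*, the marker genes and others so marked were named after their values were seen. Replicate numbers were read as names of mice, since the labels and methods name no pairing. Deviations of same-numbered mice had correlations of 0.02, 0.05 and -0.0002. With 3 mice per group these cannot show whether equal numbers shared a batch. Alternatives were a pseudocount of 0.1, other filters on low values, quantile and median-ratio scaling, no trend, sample weights, a replicate block, leaving out each mouse and, chosen after seeing the data, equal FPKM sums. Promoters were from RefSeq and positions from GENCODE. Tables were handled and exact tests were run with pandas 2.3.3 and NumPy 2.4.6 in Python 3.11.15. Plots were made with matplotlib 3.10.9.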

Additional observations from a re-analysis of the deposited data

How the results depend on the processing

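Among the 31 standard subunits, 28 to 30 had a lower mean with JAK inhibitor, and none passed an adjusted p of 0.05 in limma, under each of the 14 alternatives and with equal FPKM sums. The lowest adjusted p of a subunit was between 0.0775, without vehicle-treated mouse 2, and 0.309, without JAK inhibitor-treated mouse 1. The count of members at an unadjusted p under 0.05 was 13 to 21 with 1 mouse left out, against 21. In those fits 7.2% to 9.5% of all genes tested had such a p in the lower direction, against 9.4%. The regulatory median of -0.27 was -0.21 with quantile normalization and -0.22 with equal FPKM sums, and the core median of -0.19 was -0.13 and -0.14; the median of all genes was then 0.0158 and 0.0437. Over all genes, 15 passed the adjusted p, and this was 2 without a filter on low values, 34 with an FPKM of at least 1 in 3 samples, 2 without the trend, 63 with sample weights and 3 to 95 with 1 mouse left out. With the replicate block it was 67, although the labels and methods name no pairing of the mice. The members at an unadjusted p under 0.05 were 21 with the block as without it, beside 9.57% of all genes tested in the lower direction. The causes of these moves were not tested. Single genes near 0 turned direction: *Psme1* with quantile normalization (0.0167) and equal FPKM sums (0.0089), *Nfe2l1* with equal FPKM sums (0.0193), *Pomp* (-0.0266) and *Psmb8* (-0.0296) with sample weights. With 1 mouse left out, log2 fold changes were -0.168 to 0.0505 for *Nfe2l1*, -0.0698 to 0.166 for *Pomp*, -0.0139 to 0.112 for *Psma7*, -0.423 to 0.0321 for *Psma8*, -0.0691 to 0.0778 for *Psmb8*, -0.0561 to 0.165 for *Psmd11*, -0.102 to 0.0029 for *Psme1* and -0.0251 to 0.156 for *Psme2*. Depth is unknown, since no read counts were used.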
